A study of Mus musculus with 2 samples.

Results

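Metabotropic glutamate receptors and the Homer proteins that anchor some of them were measured in layer 5 of the mouse cerebral cortex. The genes were taken from a named list: the 6 receptors Grm2, Grm3, Grm4, Grm5, Grm7 and Grm8 and the 3 scaffolds Homer1, Homer2 and Homer3. All 9 were found by gene symbol among the 21474 protein-coding genes of the deposited tables.

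The material was 1 group of 2 laser-captured areas of cortical layer 5 from 1 wild-type C57Bl6 male mouse (strain B6NCrl in the labels), aged 8 months. Each area measured about 8000 square microns, and 50 cells were entered as its starting quantity. No source used here says how the areas were chosen within the layer. The libraries were made with a Smart-seq type protocol, in which full-length cDNA is amplified before sequencing, and held 26059117 expected counts in replicate 1 and 28276843 in replicate 2. The labels number them as biological replicates but give both the same donor, so each SD below is the spread between areas of 1 animal and may be technical in part. The study compared no condition, and with 1 library on each side the difference between the areas has no test.

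Metabotropic glutamate receptors are G protein-coupled receptors that respond to glutamate more slowly than ion channel receptors do. Group I receptors act through Gq proteins and phospholipase C on calcium stores and sit mainly around the postsynaptic density, whereas group II and group III receptors act through Gi and Go proteins, lower cyclic AMP and often sit on axon terminals, where they limit transmitter release. Homer proteins bind a proline-rich motif of group I receptors, inositol trisphosphate receptors and Shank scaffolds. Long Homers join into multimers through a coiled coil and hold these partners together, while the short form Homer1a lacks the coiled coil, is made after neuronal activity and uncouples them.

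The areas differed in markers of several cell types, and the part of this in the differences between the areas below was not tested. Levels are in TPM, an abundance unit in which the counts of a gene are divided by transcript length and by the depth of the library, so genes can be set side by side. Layer 5 markers were at 1 TPM or more in both libraries for 5 of 5 genes, summing to 3013 TPM in replicate 1 and 3742 in replicate 2. Most of that sum was Pcp4, at 2922 TPM in replicate 1 against 3599 in replicate 2, while Bcl11b went the other way, at 11.0 in replicate 1 against 6.91 in replicate 2, and Rbp4 was beyond 2-fold, at 42.1 in replicate 1 against 88.2 in replicate 2. Excitatory markers passed for 6 of 6, summed to 1389 TPM in replicate 1 and 1591 in replicate 2, and were led by Nrgn, at 802 in replicate 1 against 948 in replicate 2. By TPM 5 of the 6 were higher in replicate 2, most of all Slc17a7, at 56.2 in replicate 1 against 112 in replicate 2. Arpp21 went the other way, at 294 in replicate 1 against 217 in replicate 2. GABAergic markers passed for 6 of 7 and summed to 1583 TPM in replicate 1 and 3112 in replicate 2. Among them Pvalb had 918 TPM in replicate 1 against 145 in replicate 2, Gad1 438 in replicate 1 against 65.2 in replicate 2, and Sst 194 in replicate 1 against 2859 in replicate 2. Sst thus made up most of the sum in replicate 2. Of the 6, 3 were higher in replicate 1 and 3 in replicate 2. Gad2 went opposite to Gad1, at 23.9 TPM in replicate 1 against 31.8 in replicate 2. Oligodendrocyte markers passed for 6 of 6 at a sum of 539 TPM in replicate 1 against 903 in replicate 2, microglia markers for 6 of 6 at 217 in replicate 1 against 70.5 in replicate 2, and endothelial markers for 4 of 4 at 92.5 in replicate 1 against 45.0 in replicate 2. The first 2 of these lists were led by Mbp and C1qb, and each of their genes differed in the direction of the sum. The endothelial sum was mostly Ly6c1, at 77.1 TPM in replicate 1 against 37.1 in replicate 2, and Pecam1 went the other way, at 1.28 in replicate 1 against 2.32 in replicate 2. Oligodendrocyte precursor markers passed for 0 of 3, at 1.05 TPM in replicate 1 and 1.00 in replicate 2. No listed marker had 0 counts in both libraries.

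Homer1 had the highest level of the 9 genes and Homer3 the lowest, and Grm5 and Grm3 led the receptors. At 1 TPM or more in both libraries stood 8 of the 9 genes, all but Homer3, where 51.5% of all protein-coding genes did. In order of mean TPM the genes ran Homer1, Grm5, Grm3, Grm7, Grm8, Grm2, Homer2, Grm4 and Homer3. Of the 8 pairs of neighbours in that order, 4 had libraries that did not overlap: Homer1 above Grm5, Grm3 above Grm7, Homer2 above Grm4 and Grm4 above Homer3. The other 4 pairs overlapped between the libraries. Within each library Grm8 was above Grm2, while Grm5 with Grm3, Grm7 with Grm8 and Grm2 with Homer2 changed order. The place of Homer2 also depends on the transcript length used, as given with its values.

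**Figure D1:**
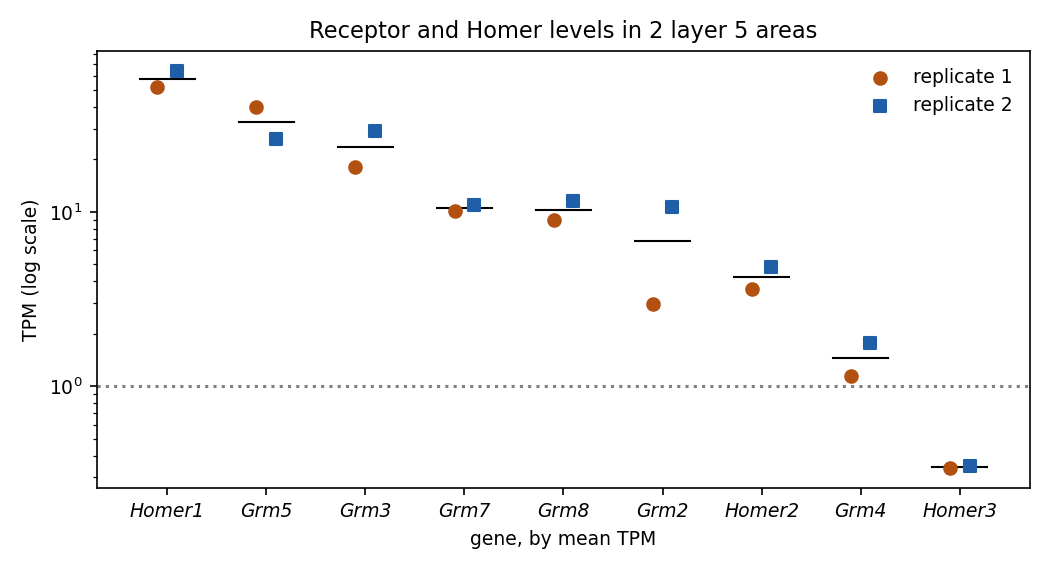
Level of each receptor and Homer gene in TPM on a log scale, with replicate 1 as circles, replicate 2 as squares, the mean as a bar and a dotted line at 1 TPM. Homer1 lies highest, at 51.6 TPM in replicate 1 and 64.4 in replicate 2, Grm2 has its libraries farthest apart, at 2.97 in replicate 1 and 10.6 in replicate 2, and Homer3 lies below the line.

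Grm5 was the group I receptor of the list and the highest receptor in replicate 1. It encodes the receptor that drives phospholipase C signalling in cortical pyramidal cells and lies at chr7:87584168-88134907 on the plus strand of GRCm38. It had 39.7 TPM from 5354 expected counts in replicate 1 and 26.1 TPM from 3619 expected counts in replicate 2, a mean of 32.9 ± 9.58 TPM (SD, n = 2 areas). Grm5 was the only one of the 8 genes with a mean of at least 1 TPM that was higher in replicate 1 by TPM. None of the 8 was more than 2-fold higher in replicate 1, where 4.99% of all protein-coding genes of that level were. The log2 ratio of TPM + 1, replicate 1 over replicate 2, was 0.58. The ratio of its counts per library total was 1.61, with an exact 95% interval of 1.54 to 1.67 that covers counting error only. Among the 3189 protein-coding genes at a mean of 20 to 100 TPM, 14.5% differed between the areas by a larger log2 ratio in either direction. In tissue pieces of this kind fewer cells of a type and less RNA per cell cannot be told apart, for this and every gene below.

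The known full-length variants of Grm5 differ by an exon of 96 bases in the tail of the receptor, chr7:88116193-88116288 on the plus strand. It is shown here with 15 bases of coding sequence on each side, from the GENCODE M21 transcripts of GRCm38. The exon, in capitals, is kept in Grm5-204, a transcript of 1203 codons.
Grm5-204: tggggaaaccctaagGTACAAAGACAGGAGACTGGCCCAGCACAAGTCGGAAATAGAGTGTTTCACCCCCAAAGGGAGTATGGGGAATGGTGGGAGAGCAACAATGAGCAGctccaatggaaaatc
Grm5-202, whose 1171 codons leave the exon out, held 85.7% of the TPM of Grm5 in replicate 1 and 82.7% in replicate 2. Grm5-201, with the same number of codons, held 0% in replicate 1 and 5.40% in replicate 2. Together these transcripts without the exon held 86.9 ± 1.70% (SD, n = 2 areas). Grm5-202 has a deposited length of 6896 bases against 3739 for Grm5-204, and in M21 it reaches farther at both ends. Reads from those ends would go to Grm5-202 with or without the exon. The share is therefore not a direct measure of exon skipping, and its SD does not cover this. The authors' posterior SD of the count of Grm5-201, an estimate of how uncertain the division of reads was, came to 21.8 in replicate 1 and 58.9 in replicate 2, beside expected counts of 0 in replicate 1 and 107 in replicate 2. Grm5-204 itself had 0 expected counts in both libraries. A further transcript of the deposited tables, ENSMUST00000167164.3, held 12.4% from 372 expected counts in replicate 1 and 11.9% from 242 in replicate 2. Its deposited length of 3612 bases is that of Grm5-201, 3516 bases, plus 96. It has no entry in GENCODE M21, so whether it contains the exon was not analysed here. Grm5-204 and the unmatched transcript are described because of this exon and were chosen after their values were seen.

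The group II receptors Grm2 and Grm3 were both higher in replicate 2, and Grm2 differed the most of all 9 genes. Grm2, an autoreceptor of glutamate terminals, lies at chr9:106643095-106656082 on the minus strand. It had 2.97 TPM from 206 expected counts in replicate 1 and 10.6 TPM from 760 expected counts in replicate 2, a mean of 6.79 ± 5.40 TPM (SD, n = 2 areas). The log2 ratio of TPM + 1 was -1.55, and the count ratio was 0.294, with an exact interval of 0.251 to 0.344. Read as replicate 2 over replicate 1, the TPM of Grm2 differed 3.57-fold.

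Grm2 was the 1 gene of the 8 at that level whose libraries stood more than 2-fold apart, where 10.3% of all protein-coding genes did. Counted in its own direction, 5.31% of all such genes were more than 2-fold higher in replicate 2. Among the 4089 genes of a like level, a mean of 5 to 20 TPM, the share was 9.86% in either direction and 5.53% in that of Grm2, and 2.76% differed by more than Grm2 did. These shares describe all genes of the libraries and are not a test of Grm2. The tables list a single transcript for Grm2, and the antisense gene Gm28111, which shares 470 exonic bases with it, took 2 counts in replicate 1 against 12 counts in replicate 2.

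Grm3, which in cortex is made by astrocytes as well as neurons, was the second highest receptor on average. It lies at chr5:9485541-9725170 on the minus strand. Grm3 had 18.2 TPM from 1343 expected counts in replicate 1 and 29.0 TPM from 2216 expected counts in replicate 2, a mean of 23.6 ± 7.64 TPM (SD, n = 2 areas). Its log2 ratio was -0.65 and its count ratio 0.658, with an interval of 0.614 to 0.704. Of the 3189 genes at 20 to 100 TPM, 11.3% differed by more, 3.20% were beyond 2-fold, and 1.88% were so with replicate 2 higher. Grm3 exceeded Grm2 in both areas, 6.11 times in replicate 1 and 2.73 times in replicate 2. Grm3 also has a single transcript in the tables.

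Astrocyte markers, given beside Grm3, did not all differ in 1 direction. They summed to 625 TPM in replicate 1 and to 727 TPM in replicate 2, with 6 of the 7 markers at 1 TPM or more in both libraries, led by Aldoc, an enzyme of sugar breakdown, at 437 TPM in replicate 1 against 519 in replicate 2. Of these 6, 4 were higher in replicate 2 and 2 in replicate 1, namely Aqp4 and Gja1, the second at 30.3 TPM in replicate 1 against 28.1 in replicate 2. Gfap, the marker below 1 TPM, had 0.76 TPM in replicate 1 against 0.44 in replicate 2. The part of astrocytes in the difference of Grm3 was not tested.

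Of the group III receptors, Grm7 and Grm8 were at similar levels and Grm4 was low. Grm7, a low-affinity receptor found at the release sites of terminals, lies at chr6:110645581-111567230 on the plus strand. It had 10.1 TPM in replicate 1 and 11.0 TPM in replicate 2, a mean of 10.6 ± 0.608 TPM (SD, n = 2 areas). Its expected counts were 829.5 in replicate 1 and 868 in replicate 2, and the interval of the count ratio, 0.942 to 1.14, held 1. Grm7 thus showed no difference detectable at this depth, and it was the single gene of the 8 at 1 TPM for which this held. The interval left out 1 for the other 7, where 76.8% of all protein-coding genes of that level did so.

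Grm7 ends in alternative coding sequences, printed from the junction of the last shared bases, with the end of each form and its stop codon in capitals. Grm7-202 ends at chr6:111566018-111566067, Grm7-201 at chr6:111501510-111501580 and Grm7-203 at chr6:111499701-111499738, all on the plus strand.
Grm7-202: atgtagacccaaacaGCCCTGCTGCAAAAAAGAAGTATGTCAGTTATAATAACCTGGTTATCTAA
Grm7-201: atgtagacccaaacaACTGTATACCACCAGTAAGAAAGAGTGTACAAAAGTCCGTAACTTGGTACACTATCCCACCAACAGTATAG
Grm7-203: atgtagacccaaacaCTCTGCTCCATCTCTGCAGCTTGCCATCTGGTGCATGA
Grm7-202, with 915 codons, matches the form known as mGluR7a, and Grm7-201, with 922 codons, the form known as mGluR7b. Grm7-202 held 84.2% of the TPM of Grm7 in replicate 1 and 83.4% in replicate 2. Grm7-201 had 0 expected counts in both libraries and is named, although below 5%, because it is the other full-length form. Grm7-205, a fragment with the coding end of Grm7-201, held 7.61% from 4.75 expected counts in replicate 1 and 6.14% from 4.31 in replicate 2. Grm7-203, another fragment, had 0 counts in replicate 1 and held 8.33% from 6.49 counts in replicate 2. The shares of these fragments therefore rest on under 10 counts each. Grm7-204, annotated as a target of nonsense-mediated decay, held 8.22% from 73.6 counts in replicate 1 and 2.13% from 21.4 counts in replicate 2. The antisense gene Gm20387 shares 130 exonic bases with Grm7 and took 54.5 counts in replicate 1 against 65.5 counts in replicate 2. The strand setting of the counting is not given in the sources used here, so such reads cannot be told apart.

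Grm8, a group III receptor of terminals, lies at chr6:27275119-28135178 on the minus strand. It had 9.01 TPM from 482 expected counts in replicate 1 and 11.6 TPM from 721 expected counts in replicate 2, a mean of 10.3 ± 1.82 TPM (SD, n = 2 areas). Its log2 ratio was -0.33 and its count ratio 0.725, with an interval of 0.645 to 0.815. Grm8 was lower in replicate 1, and its interval left out 1. The difference was smaller than the median absolute log2 ratio of 0.36 among genes at 5 to 20 TPM.

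Both coding ends of Grm8 were given counts, and they differed between the areas in unequal measure. They are printed 5′ to 3′ on the minus strand, with the end of each form and its stop codon in capitals, for chr6:27285685-27285734 in Grm8-202 and chr6:27275645-27275694 in Grm8-201.
Grm8-202: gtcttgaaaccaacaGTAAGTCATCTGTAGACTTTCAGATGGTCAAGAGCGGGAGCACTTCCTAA
Grm8-201: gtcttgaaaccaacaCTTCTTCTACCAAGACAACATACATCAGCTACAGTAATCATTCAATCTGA
Transcripts with the end of Grm8-202, that is Grm8-202 and Grm8-203, held 45.0% of the TPM of Grm8 in replicate 1 and 55.9% in replicate 2. Grm8-201, with the other end, held 3.05% in replicate 1 and 16.4% in replicate 2. Its expected counts were 16.1 in replicate 1 and 116 in replicate 2, a count ratio of 0.150 with an exact interval of 0.083 to 0.253. The count ratio of the transcripts with the end of Grm8-202 was 0.688, with an interval of 0.598 to 0.792, so the ratios of the alternative ends had intervals that did not overlap. These intervals leave out the error of dividing reads among transcripts, for which the authors' posterior SD of Grm8-201 was 5.30 counts in replicate 1 and 19.2 in replicate 2. Grm8-203 was listed at 0 counts in replicate 1 and 141 in replicate 2, with a posterior SD of 19.6 in replicate 1 and 62.5 in replicate 2. Grm8-204, a short transcript whose coding end is not known, took 48.6% of the TPM from 22.3% of the counts of Grm8 in replicate 1, and 26.9% of the TPM from 11.0% of the counts in replicate 2.

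Grm4, the group III receptor best known from cerebellar granule cells, lies at chr17:27422387-27521403 on the minus strand. It had 1.15 TPM from 110 expected counts in replicate 1 and 1.76 TPM from 162 in replicate 2, a mean of 1.46 ± 0.431 TPM (SD, n = 2 areas). Its log2 ratio was -0.36, against a median absolute log2 ratio of 0.50 among genes at 1 to 5 TPM, of which 21.1% were beyond 2-fold in either direction. The count ratio was 0.737, with an interval of 0.573 to 0.944. Grm4-201 held all of the expected counts in replicate 1 and 92.1% of the TPM in replicate 2, where Grm4-204 took 7.89% from 1.69 counts.

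Summed over the 6 receptors, the libraries were close, at 81.1 TPM in replicate 1 and 90.0 TPM in replicate 2, but their make-up differed. The group I receptor Grm5 held 48.9% of that sum in replicate 1 and 29.0% in replicate 2. The group II receptors held 26.1% in replicate 1 and 44.0% in replicate 2. The group III receptors took a like part in both, 25.0% in replicate 1 and 27.0% in replicate 2. Grm5 was thus above the sum of Grm2 and Grm3 in replicate 1 and below it in replicate 2, a description of 2 areas without a test. The shares are of the 6 listed receptors, with Grm5 alone for group I, and do not rank whole groups.

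**Figure D2:**
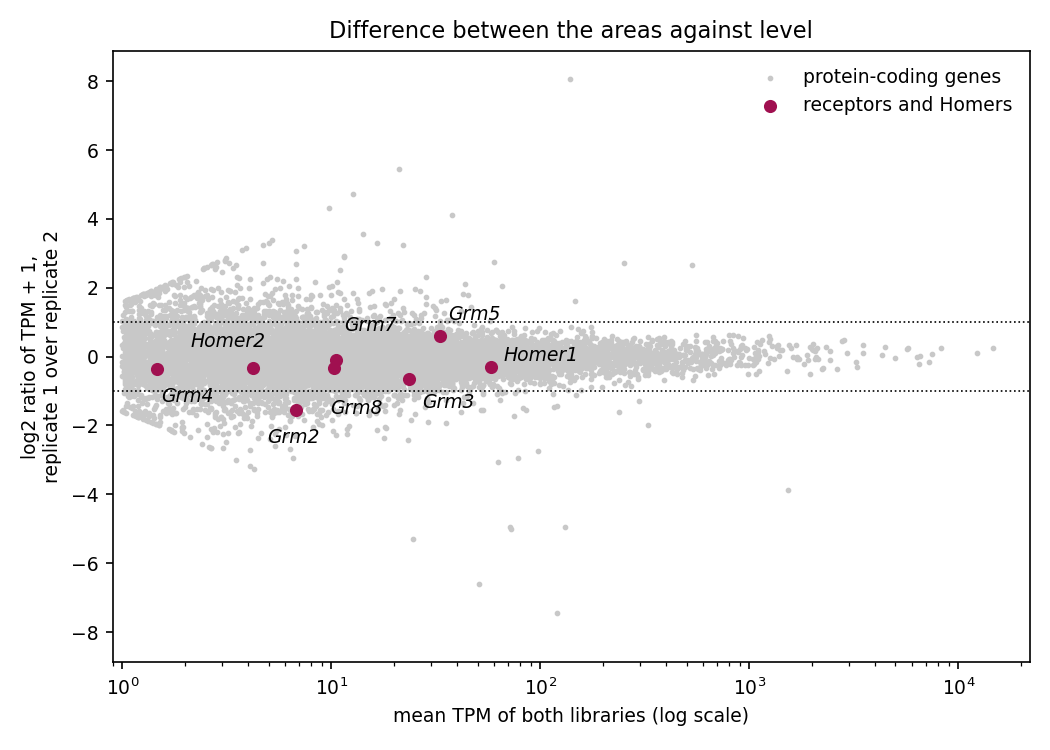
Log2 ratio of TPM + 1, replicate 1 over replicate 2, against mean TPM on a log scale, for all protein-coding genes with a mean of at least 1 TPM in grey and the 8 receptor and Homer genes at that level in colour, with dotted lines at 2-fold. Grm2 at -1.55 is the 1 coloured point outside the lines, and Grm5 at 0.58 is the 1 above 0.

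Homer1 was the most abundant of the 9 genes in both areas and lies at chr13:93299635-93405129 on the plus strand. It had 51.6 TPM from 3834 expected counts in replicate 1 and 64.4 TPM from 4736 in replicate 2, a mean of 58.0 ± 9.09 TPM (SD, n = 2 areas). That mean was higher than that of 90.7% of protein-coding genes. Homer1 was lower in replicate 1, with a log2 ratio of -0.32 and a count ratio of 0.878, interval 0.842 to 0.917. Set beside its receptor partner, the TPM of Homer1 was 1.30 times that of Grm5 in replicate 1 and 2.47 times in replicate 2.

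Long and short Homer1 part company at the end of the exon before the coiled coil region. The short form Homer1-204, with 186 codons, reads on past the splice site of the long forms, and its own coding end at chr13:93356080-93356113 lies in what is intron for them. Homer1-203, with 366 codons, splices to a 36-base exon at chr13:93386345-93386380. Homer1-202 has 370 codons, leaves that exon out and joins the same shared bases to the next exon, at chr13:93387524-93387553 for the bases printed. In the sequences, on the plus strand, the capitals mark the coding end of the short form with its stop codon and the 36-base exon.
Homer1-204: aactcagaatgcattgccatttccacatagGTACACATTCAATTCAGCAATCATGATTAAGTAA
Homer1-203: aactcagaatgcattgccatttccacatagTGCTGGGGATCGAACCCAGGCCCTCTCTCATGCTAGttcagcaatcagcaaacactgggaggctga
Homer1-202: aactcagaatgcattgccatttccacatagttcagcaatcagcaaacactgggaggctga
By their numbers of codons Homer1-204 corresponds to Homer1a and Homer1-203 to Homer1c.

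Long transcripts, taken as those of 300 codons or more, held most of Homer1 in both areas. Their share of the TPM of Homer1 was 86.5% in replicate 1 and 73.6% in replicate 2, a mean of 80.0 ± 9.11% (SD, n = 2 areas). By expected counts, where the long untranslated end of Homer1-204 weighs more, the long share was 79.0% in replicate 1 and 70.0% in replicate 2. The long forms summed to 44.6 TPM in replicate 1 and 47.4 in replicate 2. Per library total they were nearly equal, at 116 CPM (counts scaled by the library total) in replicate 1 and 117 CPM in replicate 2, a count ratio of 0.992 with an interval of 0.944 to 1.04. The short forms had a count ratio of 0.614, interval 0.562 to 0.669. By counts, then, the short forms were lower in replicate 1, and no difference was detectable at this depth in the sum of the long forms.

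Homer1-204, the Homer1a transcript, made up most of the short class. It had 6.41 TPM from 775 expected counts in replicate 1, or 12.4% of Homer1, and 10.3 TPM from 1281 in replicate 2, or 15.9%. Its count ratio was 0.656, with an interval of 0.600 to 0.718, and the authors' posterior SD was 9.01 counts in replicate 1 and 10.6 in replicate 2. The other short transcript above 5%, Homer1-211, was listed at 0 counts in replicate 1 and 94.6 in replicate 2, where it took 9.21% of the TPM. Its 192 codons put it in the short class, yet it skips inner exons and keeps the last coding exon of the long forms. The authors' posterior SD of its count was 7.27 in replicate 1 and 25.2 in replicate 2. Leaving it with the long forms, a grouping chosen after its structure was seen, gave short shares of 13.5% in replicate 1 and 17.2% in replicate 2.

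Among the long forms Homer1-202 came first, at 38.6 TPM, or 74.9% of Homer1, in replicate 1 and 38.1 TPM, or 59.1%, in replicate 2. Homer1-203 had 5.97 TPM, or 11.6%, in replicate 1 and 9.34 TPM, or 14.5%, in replicate 2. Homer1-202 differed little between the areas, with a count ratio of 1.06 and an interval of 1.01 to 1.12. Homer1-203 was lower in replicate 1, with a count ratio of 0.670 and an interval of 0.588 to 0.763. Both intervals leave out the error of dividing reads among transcripts. The authors' posterior SD for Homer1-202 was 25.4 counts in replicate 1 and 40.1 in replicate 2. For Homer1-203 it was 30.1 in replicate 1 and 52.35 in replicate 2, beside expected counts of 379 in replicate 1 and 614 in replicate 2. The transcripts also differ at their start: Homer1-202 opens with a coding exon of its own at chr13:93308308-93308360, and Homer1-204 opens at chr13:93305298-93305302, as does Homer1-203. The first coding bases of each are in capitals below, followed by the shared second coding exon.
Homer1-202 start: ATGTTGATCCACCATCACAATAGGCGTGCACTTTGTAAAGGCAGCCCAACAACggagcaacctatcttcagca
Homer1-204 start: ATGGGggagcaacctatcttcagca
In GENCODE M21 the 3′ end also reaches farther in Homer1-202. The reads were divided on release M4, which gives Homer1-202 a length of 3287 bases against 4287 in M21, so which of these features separated Homer1-202 from Homer1-203 in the counts was not tested. Homer1-201, a long form of 354 codons, was listed at 0 in both libraries and is named as the remaining long form. Across genes of several transcripts with a mean of at least 20 TPM, the share of the leading transcript differed by over 10 percentage points in 24.1% of 3434, and Homer1 was among them, with 15.8 points more for Homer1-202 in replicate 1.

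**Figure D3:**
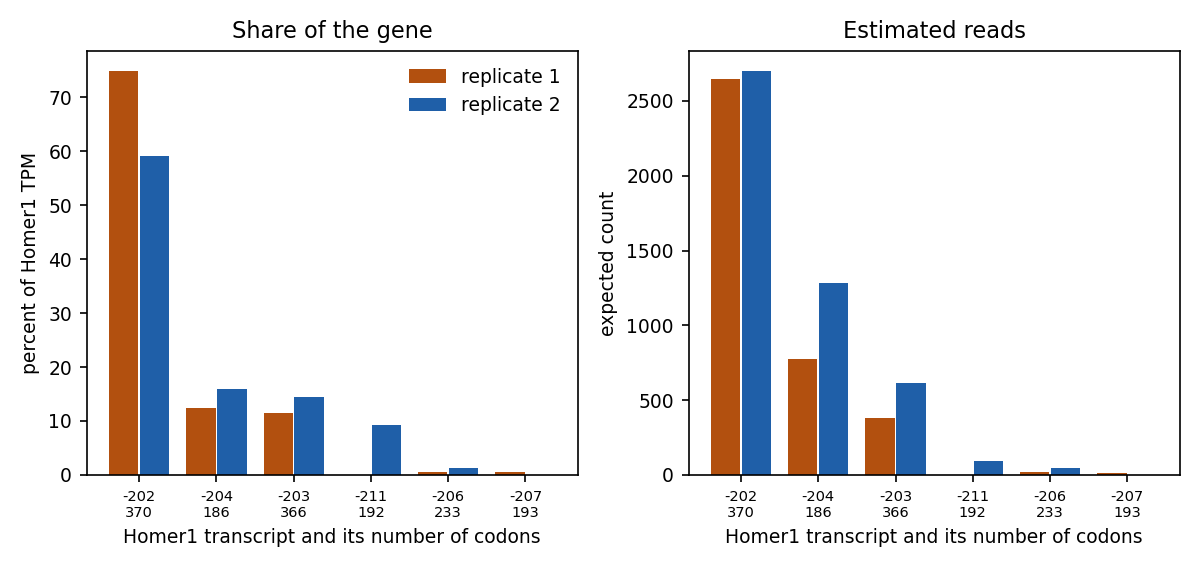
Share of the TPM of Homer1 in percent (left) and expected count (right) of each Homer1 transcript with counts, replicate 1 beside replicate 2, labelled by transcript number and number of codons. Homer1-202 has 2650.2 expected counts in replicate 1 and 2701 in replicate 2, whereas the short form Homer1-204 has 775 in replicate 1 and 1281 in replicate 2.

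Homer2 and Homer3 were far below Homer1 in the deposited TPM, of which Homer1 held 92.9% of the Homer sum in replicate 1 and 92.6% in replicate 2. Homer2, a long Homer of neurons, lies at chr7:81600481-81707527 on the minus strand. It had 3.61 TPM from 846 expected counts in replicate 1 and 4.82 TPM from 1168 in replicate 2, a mean of 4.22 ± 0.856 TPM (SD, n = 2 areas). Its log2 ratio was -0.34 and its count ratio 0.786, with an interval of 0.719 to 0.859. The level of Homer2 depends on the length given to its transcript. The deposited tables list Homer2-201, which took all of its counts, with 10999 bases, while GENCODE M21 gives it 1736. Rescaled by M21 lengths, an alternative chosen after seeing the data, Homer2 had 24.0 TPM in replicate 1 and 32.1 in replicate 2. This rescaling kept the counts of each transcript and did not divide the reads again. In M21 the 3′ end reaches farther in Homer2-202, which has 10982 bases, than in Homer2-201. Reads from that stretch would belong to Homer2-202, so the rescaled level of Homer2 may be too high, by an amount not tested. On the same lengths Homer1 had 42.4 TPM in replicate 1 and 55.3 in replicate 2, and Grm3 21.2 in replicate 1 and 33.8 in replicate 2. Grm5 had 34.6 TPM in replicate 1 and 23.0 in replicate 2 on these lengths. By this rescaling Homer2 stood below Homer1 in both areas and overlapped both Grm3 and Grm5. The share of Homer1 in the Homer sum given above holds for the deposited lengths only.

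Homer3, the Homer known from cerebellar Purkinje cells, lies at chr8:70282827-70294361 on the plus strand. It had 0.34 TPM from 16.5 expected counts in replicate 1 and 0.35 TPM from 17.1 in replicate 2, a mean of 0.345 ± 0.007 TPM (SD, n = 2 areas). By the authors' posterior mean, Homer3 had 0.95 TPM in replicate 1 and 0.78 in replicate 2, a mean of 0.865, so the narrow SD does not cover the uncertainty of its level. The floor of 3 counts corresponded to 0.115 CPM in replicate 1 and 0.106 CPM in replicate 2, and Homer3 was above it at 0.633 CPM in replicate 1 and 0.605 in replicate 2. Its value is uncertain, since it shares 874 exonic bases with Ddx49 on the opposite strand, a gene with 644 counts in replicate 1 against 526 counts in replicate 2.

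Across the 8 genes with a mean of at least 1 TPM, 7 were higher in replicate 2 by TPM, where 54.0% of all protein-coding genes were, and 6 by CPM, where Grm7 turned and 49.1% of all protein-coding genes were. Their median log2 ratio was -0.33, beside -0.05 over all 11841 genes at that level, both by TPM. The excitatory and layer 5 markers had medians of -0.31 each by TPM, and the GABAergic markers 0.11. By CPM the median was -0.35 for the 8 genes, -0.12 for excitatory, -0.23 for layer 5 and 0.15 for GABAergic markers. The 8 genes share their libraries and are not independent, so the count is a description.

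The lists of effectors, partners and activity-regulated genes hold 45 genes, of which 42 reached a mean of 1 TPM. By TPM, 14 of these were higher in replicate 1 and 28 in replicate 2, and 1 was beyond 2-fold, beside 10.3% of all protein-coding genes of that level. That share varies with level, at 21.1% for genes of 1 to 5 TPM and 3.20% for those of 20 to 100 TPM. The 35 effectors and partners among them had 14 genes higher in replicate 1 and 21 higher in replicate 2. On the scale of TPM + 1, 0 were beyond 2-fold, while Elfn2 passed with a pseudocount of 0.1. The count ratio was 0.496 for Elfn2 and 0.454 for Shank3, both named after their values were seen. Of the 13 group I effectors 12 reached 1 TPM, 4 of them higher in replicate 1 and 8 higher in replicate 2, with a median log2 ratio of -0.08. Prkcb, a protein kinase C gene, had 362 TPM in replicate 1 against 399 in replicate 2. Plcb1, the phospholipase C downstream of Grm5, had 73.6 TPM in replicate 1 and 72.5 in replicate 2, and Itpr1, an inositol trisphosphate receptor that binds Homer, 49.4 in replicate 1 and 56.2 in replicate 2.

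The 9 effectors of groups II and III were all above 1 TPM, 3 of them higher in replicate 1 and 6 in replicate 2 by TPM, or 4 in replicate 1 and 5 in replicate 2 by CPM, with a median log2 ratio of -0.12 by TPM. The G protein genes Gnao1, at 102 TPM in replicate 1 and 89.2 in replicate 2, and Gnai1, at 85.4 in replicate 1 and 71.8 in replicate 2, were the highest. Gnai2 had 35.2 TPM in replicate 1 and 39.6 in replicate 2, and the adenylyl cyclase Adcy2 29.4 in replicate 1 and 32.0 in replicate 2. None of these differed by more than 2-fold.

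Of the 14 Homer ligands and receptor partners, 7 were higher in replicate 1 and 7 in replicate 2, with a median log2 ratio of -0.17. Dlgap1, a scaffold linking the receptor density to Shank proteins, had 117 TPM in replicate 1 and 107 in replicate 2, and Shank1, a Homer ligand, 42.6 in replicate 1 and 38.2 in replicate 2. Ncdn, a protein that binds Grm5, had 49.8 TPM in replicate 1 and 73.8 in replicate 2, and the dynamin Dnm3, which links Homer to endocytosis, 26.7 in replicate 1 and 36.6 in replicate 2. Ncdn was thus higher in replicate 2, opposite in direction to Grm5.

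Of the 9 listed genes made after neuronal activity, the class to which Homer1a belongs, 7 reached 1 TPM. All 7 were higher in replicate 2 by TPM, beside the 54.0% of all genes, and 6 by CPM, beside 49.1%, with a median log2 ratio of -0.79 by TPM. Egr1, a transcription factor gene, had 41.8 TPM in replicate 1 against 72.9 in replicate 2, and Junb, another, 10.1 in replicate 1 against 19.1 in replicate 2. Dusp1, a phosphatase of MAP kinases, had 12.2 TPM in replicate 1 and 12.6 in replicate 2, a difference not detectable at this depth, with a count ratio of 1.00 and an interval of 0.883 to 1.13. Arc, which promotes the uptake of AMPA receptors, was the 1 gene beyond 2-fold on the log2 scale of TPM + 1, at 7.31 TPM in replicate 1 and 16.3 in replicate 2. Bdnf, a growth factor gene named after its values were seen, had 6.76 TPM in replicate 1 and 14.2 in replicate 2 and passed 2-fold with a pseudocount of 0.1 or with TPM over nuclear genes. The partner genes beyond 2-fold then numbered 3 and 2. Summed over the list the level was 85.4 TPM in replicate 1 and 148 in replicate 2, in the same direction as Homer1-204, and their relation was not tested.

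**Figure D4:**
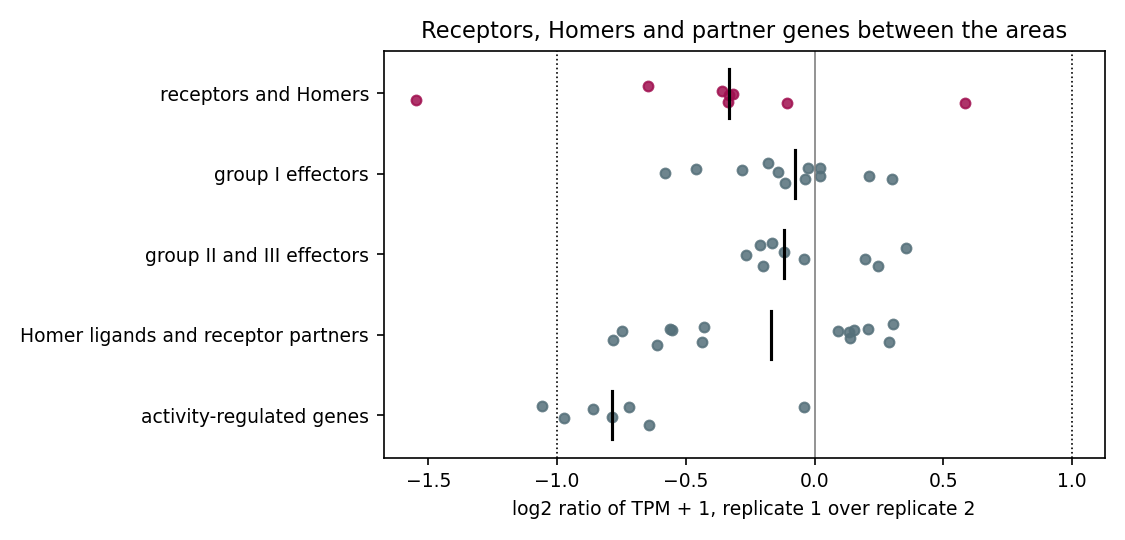
Log2 ratio of TPM + 1, replicate 1 over replicate 2, of each receptor or Homer gene and of the genes of each partner list with a mean of at least 1 TPM, with the median as a black bar and dotted lines at 2-fold. The activity-regulated genes have the lowest median, -0.79, and the effector lists lie nearest 0, at -0.08 and -0.12.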

How the data were processed

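The deposited gene and transcript tables give, per the file headers, an expected count, which is an estimate of reads that need not be whole, TPM, posterior mean estimates of both with their SD, and for each transcript its percent of the TPM of its gene. TPM was scaled by the authors over all features, spike-ins and mitochondrial genes included. Assembly mm10 and annotation release M4 are named in the text files deposited beside the tables, whose columns are laid out as in RSEM. The aligner, trimming, program version and strand setting are not given in the sources used here. Spike-in rows took 7.19% of the counts in replicate 1 and 7.94% in replicate 2, and rows named only by numbers 20.3 counts in replicate 1 and 5 in replicate 2.

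Symbols, coordinates, codons and sequences came from GENCODE M21 on GRCm38, with transcripts matched without their version: 42 of the 43 transcripts of the 9 genes matched. The genes and the partner and marker lists were chosen with earlier results of these data known. From each list up to 4 genes of highest mean TPM and any beyond 2-fold at a mean of 5 TPM were to be named, and transcripts at 5% of their gene in either library; of the marker lists, sums and some of these genes are given, with a few others chosen after their values were seen. A gene that this rule would name is not reported here. The areas were compared by the log2 ratio of TPM + 1 and, for expected counts rounded to whole numbers, by the ratio per library total with an exact Clopper-Pearson 95% interval. The labels name no molecular identifiers, and these intervals and the 3-count floors reflect counting error alone. Background shares are over all protein-coding genes. The libraries were checked for being copies: chi-square per gene was 69.5 over 14131 genes. On simulated counts with counting error alone, the 95% interval held the set ratio for 95.3% of 12604 genes. The interval assumes such counts, so this checked the calculation and not its use on these libraries. Python 3.11.15, numpy 2.4.6, pandas 2.3.3 and scipy 1.17.1 were used. A comparison of protein sequences between the genes was not analysed here.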

Additional observations from a re-analysis of the deposited data

How the results depend on the processing

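Grm2 stayed the 1 gene of the 9 beyond 2-fold with a pseudocount of 0.1, posterior mean TPM, TPM over nuclear genes, CPM, no filter on low values, and centring on the median gene (chosen after seeing the data). At 5 TPM in place of 1 TPM, 5 genes passed in both libraries in place of 8, by the construction of the threshold. Partner genes beyond 2-fold numbered 3 with a pseudocount of 0.1, adding Bdnf and Elfn2 to Arc, and 2 with nuclear-gene TPM, adding Bdnf; both were named after their values were seen. The long share of Homer1 averaged 74.5% by counts, 78.7% by posterior mean and 84.6% with Homer1-211 counted as long, a grouping chosen after seeing the data, beside 80.0%. Taken from 1 library, it ranged from 73.57% to 86.46%, and the genes at 1 TPM or more from 8 to 8. Single log2 ratios moved for 3 genes by CPM, where that of Grm7 was 0.05, and for Grm2 with a pseudocount of 0.1, to -1.80. A mean level was called moved where its shift exceeded the SD between the areas. Nuclear-gene TPM leaves out mitochondrial, spike-in and unmatched rows, which raises all genes of a library by the same factor. With it mean levels moved for 7 of 9 genes, Homer1 to 75.2, but not for Grm2 and Grm3, whose SDs exceeded the shift. That split reflects the spread between the areas. Homer3 moved to 0.865 by posterior mean. No paired analysis was possible because there is 1 group of 2 libraries; for the same reason leaving out a library leaves no ratio between the areas. With 16.5 counts in replicate 1 and 17.1 in replicate 2, Homer3 rests on few counts, and the shares of the Grm7 fragments do too. Whether sequencing depth set these counts was not tested.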
